A study of Mus musculus with 72 samples.

Results

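The amino acid transporter families of the liver and the suprachiasmatic nucleus (SCN) were examined by RNA-seq in mice fed a diet short of methionine and choline (MCD) and in mice fed its control. Genes were taken by symbol, from the families Slc1a, Slc3a, Slc6a, Slc7a, Slc36a, Slc38a and Slc43a, with the glutamate carriers Slc1a2 and Slc1a3 and the carriers Slc7a10 and Slc7a11 left aside. The rule found 51 genes, 43 among the 22823 genes of the liver table and 41 among the 15759 genes of the SCN table, and 33 of them stood in both. It also took in Slc7a6os, a gene named for lying opposite to Slc7a6 and not itself a carrier.

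C57BL/6J mice, 8 to 12 weeks old when bought, were housed singly and had free access to the MCD diet (TD.220158) or the isocaloric control (TD.220157) over 11 days. The first 10 days had a light-dark cycle and the last was spent in constant darkness, when tissue was taken at circadian times (CT) 0, 4, 8, 12, 16 and 20. Liver came from the left lobe, and the SCN, the small hypothalamic nucleus that holds the central clock, was cut from stained sections with a laser. Each tissue, diet and time had 3 libraries, 2 labelled male and 1 female, which gave 18 libraries per diet in each tissue and 72 in all. The labels number the replicates without naming the animals, so the tests measure the spread between these libraries.

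Amino acids cross membranes through families of solute carriers that differ in substrate and driving force. Slc7 light chains reach the cell surface joined to a heavy chain, Slc3a2 or Slc3a1, and exchange large neutral or cationic amino acids, methionine included. Slc38 carriers move glutamine, alanine and other small neutral amino acids with sodium. Slc6 carriers take up glycine, proline, GABA, taurine, betaine and creatine, and in the brain they clear transmitters from the synapse. Many of these genes are known targets of ATF4, the transcription factor of the amino acid stress response, which binds C/EBP-ATF response elements.

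The depth per library, summed over genes, was 52.6 to 86.7 M in liver and 23.3 to 79.8 M in SCN. In liver, 40 of the 43 genes passed the filter on low counts. Slc7a15, Slc6a17 and Slc7a3 did not, with 121, 57 and 123 counts over all 36 libraries. In SCN all 41 passed. Levels are given as normalised counts scaled to library size (CPM) with TMM factors. Hepatocyte markers (Alb, Apoa1, Ttr, Cps1 and Cyp2e1) summed to 55690 to 119400 CPM in liver libraries, and SCN neuron markers (Avp, Vip, Prok2, Six6, Lhx1 and Syt10) to 1439 to 3371 CPM in SCN libraries. Liver libraries fell into 2 kinds by the mitochondrial transcript mt-Nd6. The kind with low levels held 8 control and 13 MCD libraries and the kind with high levels 10 and 5, and the liver tests were also fitted with the kind as a term.

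Both male control libraries at CT08 carry the same name in the count table of each tissue, so they are called a and b here in place of a number. The library labelled control CT08 a stood apart from the other 17 controls. Among the 25 transporters called for diet below, its level lay outside the range of the other controls for 11 and nearer to the MCD median than to that of the other controls for 18. For Slc7a1 it lay at 4.35 CPM against 0.915 to 1.86 CPM in the other controls, and for Slc6a8 at 23.2 against 4.01 to 9.62 CPM. It was kept as labelled, and results that rest on it are also given without it.

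Transporter levels were first compared within each tissue on the control diet, scaled by exon length as well as depth (RPKM). In liver the highest levels were those of Slc38a3, a system N carrier of glutamine and histidine, at 280 ± 104 RPKM (SD, n = 18) and of Slc38a4, a system A carrier, at 193 ± 42.9 RPKM. These neighbours did not differ beyond their spread. Slc6a13, a carrier of GABA and taurine, followed at 74.9 ± 6.02 RPKM, Slc7a2, a carrier of arginine and lysine, at 39.6 ± 20.4 RPKM and Slc6a12, the betaine and GABA carrier, at 31.5 ± 7.69 RPKM. Slc38a4 and Slc6a13 were set apart from each other by more than the larger of their SDs, and Slc7a2 and Slc6a12 were not. Of the 43 genes, 19 lay under 1 RPKM.

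In SCN the order was different. Slc6a11, the GABA carrier of astrocytes, led at 166.5 ± 7.15 RPKM (SD, n = 18). Slc6a17, a neutral amino acid carrier of synaptic vesicles, stood at 50.2 ± 15.4 RPKM. The heavy chain Slc3a2 was at 23.4 ± 1.72 RPKM and Slc1a4, an exchanger of alanine, serine and cysteine, at 18.2 ± 1.99 RPKM. With the longest transcript in place of all exons, the same gene led in each tissue, and Slc1a4 moved down to rank 9 in SCN. Slc38a1 moved from 17.7 to 42.0 RPKM there, above Slc3a2, and Slc6a17 from 50.2 to 81.6 RPKM.

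Some members stood in 1 table alone. The 8 listed in SCN but not in liver were Slc6a11, Slc6a15, Slc7a14, Slc1a6, Slc6a3, Slc38a11, Slc6a20a and Slc36a2. Slc7a14, a lysosomal relative of the cationic carriers, ranged from 39.7 to 87.2 CPM on control, and the dopamine carrier Slc6a3 from 0 to 9.73 CPM. The 10 listed in liver but not in SCN were led by Slc38a4 and Slc6a12, followed by Slc3a1 at 18.6 ± 4.81 RPKM and Slc43a1 at 1.39 ± 0.700 RPKM. Slc6a20b, Slc6a16, Slc6a4, Slc7a15, Slc6a21 and Slc1a7 lay under 1 RPKM.

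The 33 genes in both tables were then tested between the tissues on the control diet in 1 model of all 72 libraries. All 33 differed at an adjusted p under 0.05 (edgeR's quasi-likelihood test with Benjamini-Hochberg adjustment), where 90.4% of the 14491 genes tested did. Of these genes, 15 were higher in liver (background 44.1%) and 18 were higher in SCN (background 46.3%). With library totals alone, without TMM factors, the calls of Slc7a6os and Slc38a9 ended. The directions of both and of Slc6a9 reversed there. Other tests, scalings and filters called 31 to 33 genes. The widest differences towards liver were those of Slc6a13 (8.18 ± 0.23 log2, SE), Slc38a3 (5.75 ± 0.11) and Slc7a2 (5.09 ± 0.19). Towards SCN, Slc6a17 stood at -12.57 ± 0.25 log2 for liver minus SCN. In liver it had counts in 11 of 36 libraries, so this value rests on few liver counts.

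**Figure D1:**
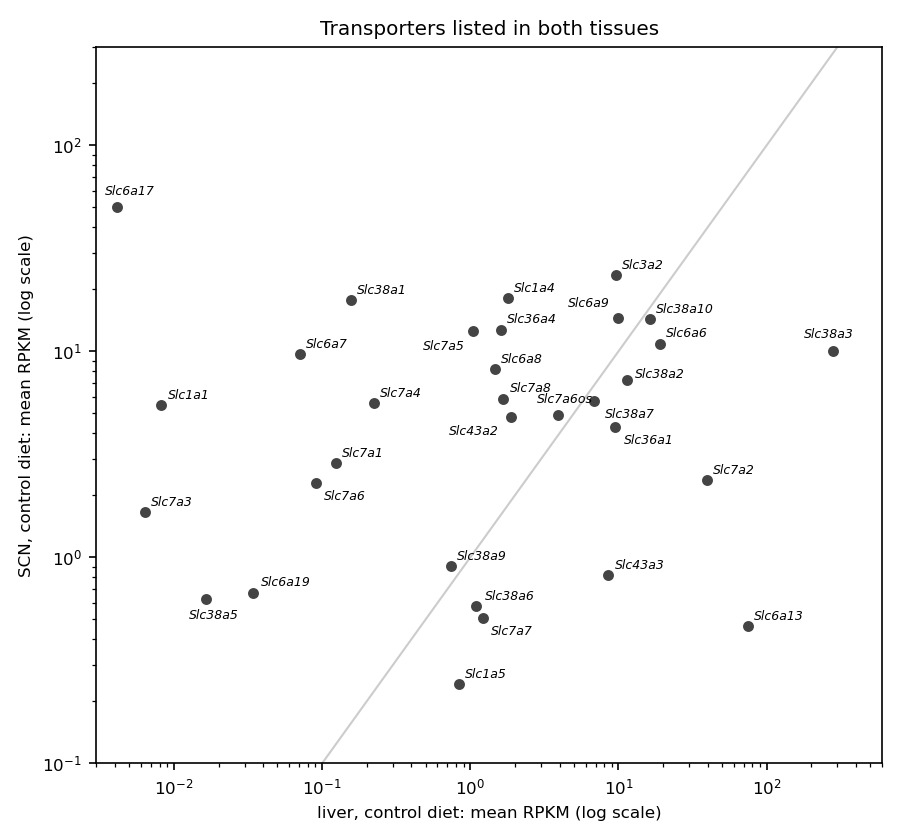
Mean level per exon length (RPKM) on the control diet of genes listed in both tissues (1 gene is not shown), liver on the x axis and SCN on the y axis, both on log scales, each point the mean of 18 libraries per tissue. The grey line marks equal values, but each tissue was scaled on its own here, so a place near the line is no test: Slc6a9 lies above it and was 0.39 log2 higher in liver in the model of both tissues. That direction reversed with library totals alone. Slc38a3, Slc6a13 and Slc7a2 lie far to the liver side, and Slc6a17 far to the SCN side.

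The next comparison asked which transporters differed between the diets in liver, on average over the 6 times. Of the 40 genes tested, 25 were called (62.5%), where 46.6% of the 20249 genes tested were. Of these, 19 were higher on MCD (25.3% of all genes were called higher) and 6 were lower (21.2% of all genes). The median change of the 40 genes was 0.20 log2, beside 0.02 log2 for all genes tested, and 27 of the 40 had a positive change. The direction was the same at 6 of 6 times for 18 of the 25. No transporter separated the diets completely, as 0 of the 25 had ranges that did not overlap, also without control CT08 a. Neither this count nor that of directions was set beside a share of all genes. Of the 25 genes called, Slc7a1 was the only one at or above a mean of 1 CPM with a change of at least 1 log2. Without control CT08 a the same 25 genes were called, and with them Slc7a3, which passed the filter on low counts there and not with all libraries. In the fit that held the kind of library 25 were called, 24 of them shared.

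Among the Slc1 carriers, both neutral amino acid exchangers rose on MCD. Slc1a5, which exchanges glutamine and other neutral amino acids, ranged from 1.73 to 6.37 CPM on control (median 3.37) and from 3.68 to 13.1 CPM on MCD (median 6.06). The ranges overlapped, with 8 of 18 MCD libraries above the highest control. Its change was 0.98 ± 0.11 log2 (SE, adjusted p = 7.36e-08), a factor of 1.98, and the means were higher on MCD at 6 of 6 times. Slc1a4 ranged from 2.22 to 17.9 CPM on control (median 5.78) and from 4.45 to 23.1 CPM on MCD (median 11.7). Its change was 0.80 ± 0.22 log2 (adjusted p = 0.00331), and 0.97 log2 without control CT08 a, which lay at 14.4 CPM. The call of Slc1a4 ended without all libraries numbered 1 or all numbered 2. Slc1a1 and Slc1a7, both carriers of acidic amino acids, had means under 0.1 CPM and were not called. Fewer cells of a type and less RNA per cell cannot be told apart in whole tissue. All 5 hepatic macrophage markers tested were higher on MCD, with summed levels of 123.5 to 292.5 CPM on control and 167.0 to 327.9 CPM on MCD, and none was at 0 in all libraries. Of the 5 sinusoidal endothelial markers 3 were higher, with summed levels of 213.7 to 304.2 CPM on control and 226.8 to 325.7 CPM on MCD. Of the 5 hepatocyte markers 3 were lower, while their sum had a median of 95110 CPM on control and 100300 CPM on MCD. Of the 4 erythrocyte markers 3 were lower, with a median sum of 244.2 CPM on control and 129.3 CPM on MCD. The part of these cell types in the transporter changes was not tested.

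Promoter windows were searched for the C/EBP-ATF response element, because members of these families rose beside genes of the amino acid stress response. The search covered 250 bases before to 50 bases after each RefSeq transcript start (build GRCm38.p6) for TGATGNAA on both strands. A match was found for 3 of the 37 transporter genes with a window (8.11%), Slc1a4, Slc7a7 and Slc6a21, beside 4.51% of all 27025 genes. Among 16 genes of amino acid sensing and the ATF4 pathway with Slc7a11, 6 had one. Of the transporters called higher on MCD, Slc1a5, Slc38a1, Slc43a3, Slc6a6, Slc6a8, Slc7a4 and Slc7a5 had no window and were not searched. The 2 stretches below hold the matches of the genes called higher on MCD and run to 20 bases after the start, with matches to the element or its reverse complement in capitals. The stretch of Slc1a4 spans chr11:20332694-20332747 and the one of Slc7a7 chr14:54417925-54418115, both on the minus strand and printed 5′ to 3′.
Slc1a4: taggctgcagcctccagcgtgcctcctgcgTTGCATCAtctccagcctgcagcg
Slc7a7: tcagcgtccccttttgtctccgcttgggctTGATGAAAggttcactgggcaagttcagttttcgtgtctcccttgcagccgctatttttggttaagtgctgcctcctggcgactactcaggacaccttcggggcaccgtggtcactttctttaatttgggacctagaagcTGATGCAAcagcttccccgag
A match is a description of the letters and no measure of binding. Slc1a4 has 1 match, near its start, and Slc7a7 has 2, of which the second lies nearer to the start.

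The heavy chain Slc3a2 and the 4 light chains tested rose on MCD. Slc3a2 ranged from 26.9 to 48.5 CPM on control (median 32.8) and from 34 to 83.4 CPM on MCD (median 53.4). The highest control was CT08 a, and 11 of 18 MCD libraries lay above it. Its change was 0.70 ± 0.09 log2 (adjusted p = 5.83e-07) and 0.74 log2 without that library. The other heavy chain, Slc3a1, partner of the cystine carrier in kidney, changed by -0.11 ± 0.11 log2 and was not called.

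All 4 light chains tested rose. Slc7a15, also listed with the light chains, failed the filter on low counts and had 107 counts on control and 14 on MCD. Slc7a8, an exchanger of large and small neutral amino acids, ranged from 4.68 to 16.6 CPM on control (median 7.66) and from 7.68 to 28.8 CPM on MCD (median 12.2), a change of 0.70 ± 0.12 log2 (adjusted p = 4.79e-05). The highest control was again CT08 a, and 4 MCD libraries lay above it. Slc7a7, which exchanges cationic for neutral amino acids, rose by 0.68 ± 0.13 log2 (adjusted p = 0.00016), from a median of 3.70 CPM to one of 6.31 CPM. Its exons share 232 bases with Oxa1l on the opposite strand, so part of its counts is uncertain. Slc7a5, the exchanger of large neutral amino acids, rose by 0.46 ± 0.08 log2 (adjusted p = 7.35e-05), from a median of 3.58 CPM to 5.35 CPM. Slc7a6 stood at a median of 0.395 CPM on control and 0.771 CPM on MCD, a rise of 1.03 ± 0.26 log2 (adjusted p = 0.00202). Its highest control, at 1.05 CPM, was CT08 a, and the other 17 controls reached at most 0.650 CPM.

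Cationic amino acid carriers parted by gene. Slc7a1, the widely expressed importer of arginine and lysine, ranged from 0.915 to 4.35 CPM on control (median 1.34) and from 1.64 to 9.92 CPM on MCD (median 3.26). The highest control was CT08 a, the next lay at 1.86 CPM, and 6 MCD libraries lay above the highest. Its change was 1.43 ± 0.19 log2 (adjusted p = 8.5e-07), a factor of 2.70, and 1.56 log2 without CT08 a. The means were higher on MCD at 5 of 6 times. Slc7a2, the cationic carrier of hepatocytes and far more abundant, ranged from 152.0 to 793.1 CPM on control and from 145.0 to 741.3 CPM on MCD. It changed by -0.14 ± 0.14 log2 and was not called (adjusted p = 0.452). Slc7a4, a relative without a settled substrate, rose by 0.42 ± 0.11 log2 (adjusted p = 0.00361) from a median of 0.899 CPM to 1.18 CPM, and 554 bases of its exons overlap P2rx6 on the opposite strand.

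Of the carriers of GABA, betaine, taurine and creatine, 3 of 5 tested rose and 1 fell. The creatine carrier Slc6a8 ranged from 4.01 to 23.2 CPM on control (median 6.73) and from 8.28 to 27.9 CPM on MCD (median 13.04). The highest control was CT08 a and the next lay at 9.62 CPM. Its change was 0.96 ± 0.17 log2 (adjusted p = 4e-05) and 1.11 log2 without that library. The taurine carrier Slc6a6 rose by 0.20 ± 0.06 log2 (adjusted p = 0.00708), from a median of 155.9 CPM to 182.4 CPM. Slc6a13 rose by 0.12 ± 0.04 log2 (adjusted p = 0.0182), and its call ended without MCD CT04 2 or MCD CT12 3, with a highest adjusted p of 0.0574. Slc6a12, which carries betaine, the oxidation product of choline, fell by 0.25 log2 on average (SE 0.10, adjusted p = 0.0447). That call ended on leaving out any of 18 single libraries, and the change differed between the sexes, as given further on.

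None of the glycine, proline and neutral amino acid carriers of the Slc6 family was called in liver (edgeR, 0 of 6 tested). The glycine carrier Slc6a9 was the most abundant of them, at a median of 48.5 CPM on control and 52.2 CPM on MCD, with a change of 0.21 ± 0.10 log2 (adjusted p = 0.0824). Its exons share 1475 bases with B4galt2 and Ccdc24 on the opposite strand. Slc6a20b had counts in 13 control and 8 MCD libraries and changed by -2.05 ± 1.17 log2 (adjusted p = 0.156), or by -0.14 log2 in the fit that held the kind of library, and 1800 bases of its exons overlap Sacm1l on the opposite strand. Slc6a7, Slc6a16, Slc6a19 and Slc6a21 had means under 1 CPM, as had the serotonin carrier Slc6a4, and none was called.

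The most abundant liver carriers belong to the Slc38 family, and both fell on MCD. Slc38a4 ranged from 579.0 to 1291 CPM on control (median 813.6) and from 345.8 to 897.2 CPM on MCD (median 481.2), and 11 MCD libraries lay below the lowest control. Its change was -0.64 ± 0.08 log2 (adjusted p = 2.44e-07), with lower means at 6 of 6 times. Slc38a3 ranged from 735.6 to 2563 CPM on control (median 1330.0) and from 563.4 to 1820.0 CPM on MCD (median 890.1). Its change was -0.59 ± 0.10 log2 (adjusted p = 2.26e-05), again at 6 of 6 times. Control CT08 a lay among the controls for both, at 896.8 and 1303 CPM.

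Other Slc38 carriers were less abundant and moved both ways. Slc38a1, a system A carrier, rose by 0.64 ± 0.16 log2 (adjusted p = 0.00223) from a median of 2.31 CPM to 3.71 CPM. Slc38a2, the system A carrier known for its response to amino acid supply, ranged from 64.3 to 221.9 CPM on control and from 66.9 to 161.9 CPM on MCD and was not called (0.04 ± 0.09 log2). Slc38a10 rose by 0.30 ± 0.05 log2 (adjusted p = 1.87e-05), from a median of 102.3 CPM to 130.7 CPM, and Slc38a7, a lysosomal glutamine carrier, by 0.17 ± 0.04 log2 (adjusted p = 0.00181). Slc38a6 fell by 0.29 log2 (SE 0.06, adjusted p = 0.000338), from a median of 8.40 CPM to 7.07 CPM. Slc38a9, the lysosomal arginine sensor, was not called (-0.01 ± 0.04 log2). Slc38a5, a system N carrier, had 38 counts in all over 3 of 18 control libraries and 221 over 13 of 18 MCD libraries. It was called (adjusted p = 0.00336), but the call ended without MCD CT12 3, after which that group held no count. For counts so low the fitted change in liver is not given here.

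Of the 3 Slc43 carriers 2 rose, and of the 2 Slc36 carriers tested 1 rose and 1 fell. Slc43a2, an efflux carrier of large neutral amino acids, rose by 0.50 ± 0.12 log2 (adjusted p = 0.0014), from a median of 19.3 CPM to 25.3 CPM, and 922 bases of its exons overlap Gm45606. Slc43a3, a nucleobase carrier by function, rose by 0.29 ± 0.06 log2 (adjusted p = 0.000169), while Slc43a1 was not called (-0.21 ± 0.20 log2). Of the Slc36 carriers of small amino acids, Slc36a4 rose by 0.17 ± 0.05 log2 (adjusted p = 0.0128) and Slc36a1 fell by 0.24 log2 (SE 0.05, adjusted p = 0.000127). Slc7a6os fell by 0.15 log2 (SE 0.04, adjusted p = 0.0043).

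Some of the smaller changes took their direction from how libraries were scaled. The mean TMM factor was 0.917 ± 0.074 for control and 1.096 ± 0.079 for MCD libraries (SD, n = 18 each). With library totals alone the median gene of all tested lay at a change of 0.27 log2, and 25 transporters were called, 23 higher and 2 lower. With that scaling 60.1% of all genes were called, so the 62.5% of transporters then lay near the background. Of all genes called with library totals 87.3% were higher, against 54.4% with TMM. Slc38a3 and Slc38a4 stayed lower under library totals, at -0.33 and -0.37 log2. Slc36a1, Slc38a6 and Slc6a12 were then not called, and Slc7a6os reversed to 0.11 log2 (adjusted p = 0.0385). Slc6a9 (0.46 log2, adjusted p = 0.000553), Slc38a2 (0.30 log2, 0.00432) and Slc38a9 (0.25 log2, 0.000218) were called higher with library totals and not with TMM. The liver changes are therefore relative to the median gene.

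**Figure D2:**
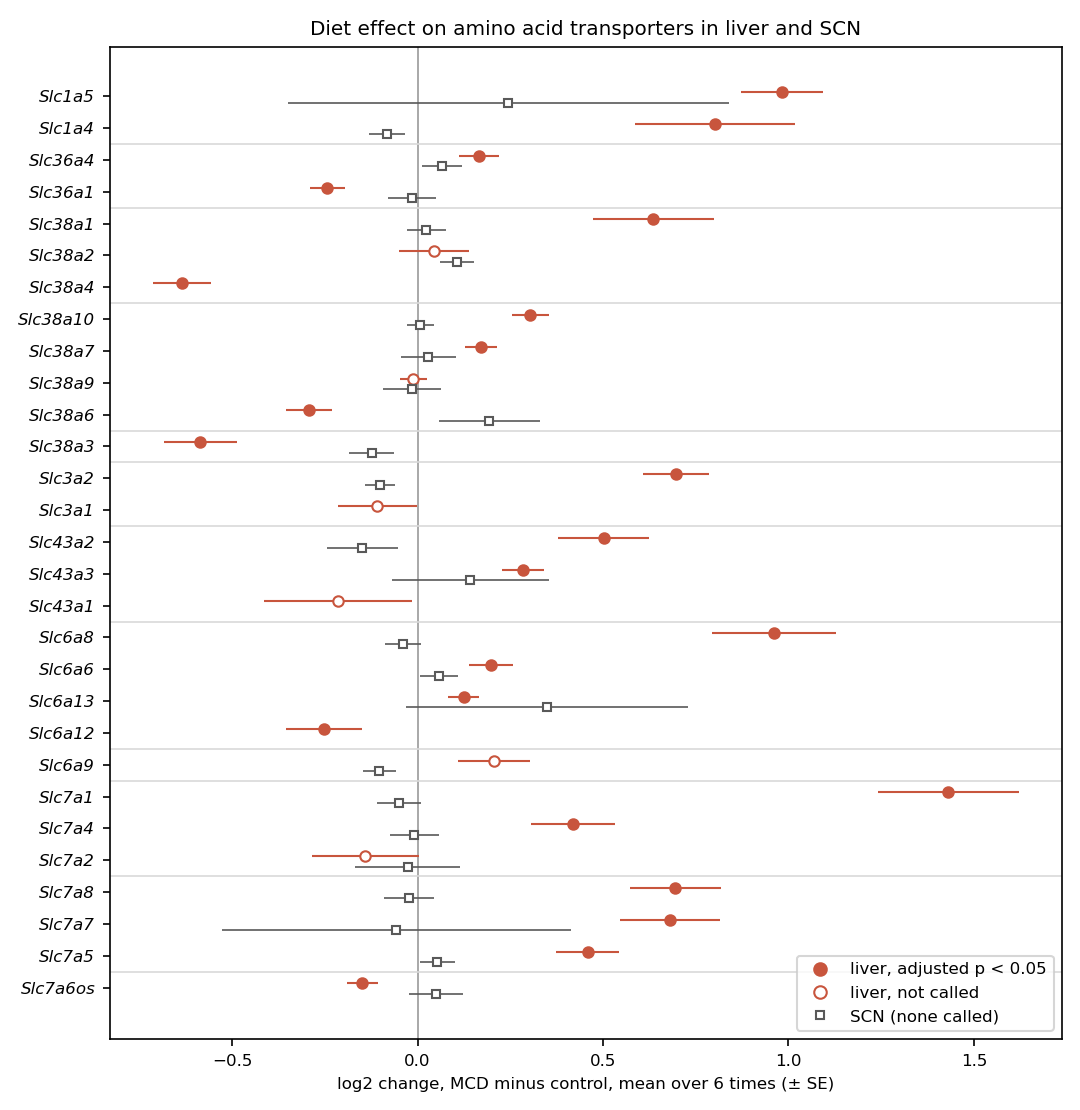
Log2 change on MCD against control, averaged over 6 times, with its standard error, for transporters with a mean of at least 1 CPM in liver (rows, grouped by role between the grey lines). Slc6a20b is left out for its standard error of 1.17. Filled circles are liver values with an adjusted p under 0.05, open circles other liver values and open squares SCN values. Liver changes run from -0.64 for Slc38a4 to 1.43 for Slc7a1, and no SCN value was called.

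**Figure D3:**
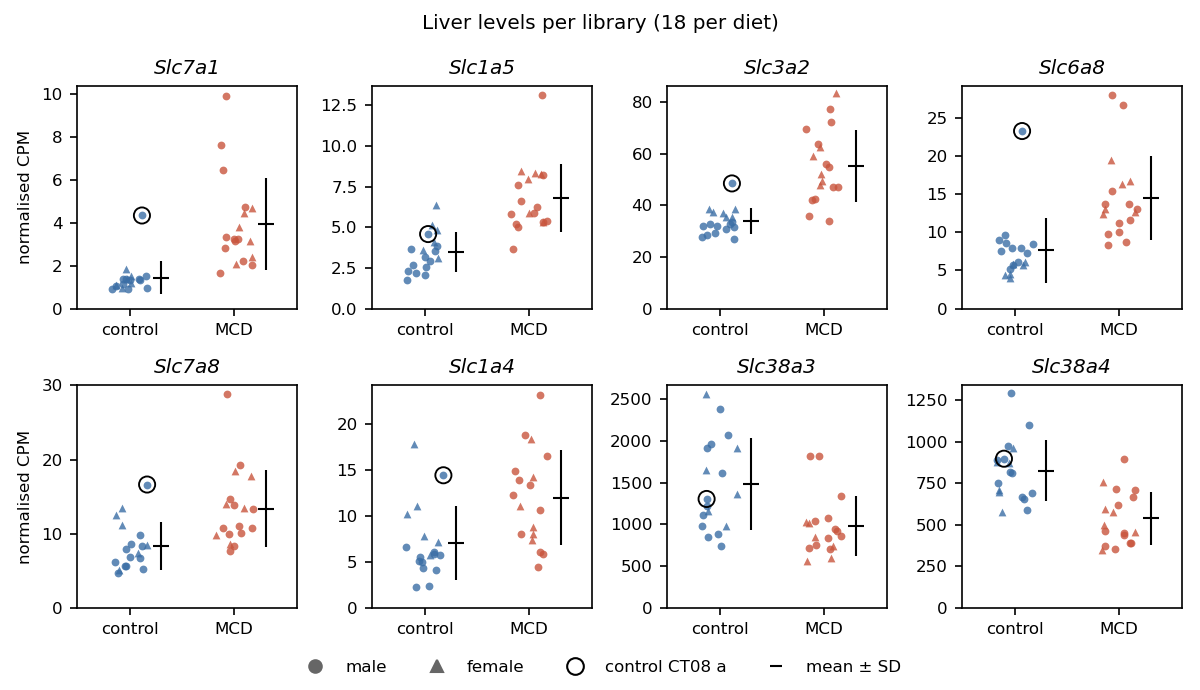
Normalised counts (CPM) per liver library for 8 transporters, 18 libraries per diet, circles for males and triangles for females. The black dash and bar give the mean and SD, and the ring marks control CT08 a, which is the highest control for Slc7a1, Slc3a2, Slc6a8 and Slc7a8. Slc38a3 and Slc38a4 are lower on MCD and the other 6 higher.

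Other genes of amino acid handling were set beside the transporters from lists chosen with earlier results of these data known. Of 15 genes of amino acid sensing and the ATF4 pathway tested in liver, 10 were higher and 3 lower on MCD, with a median change of 0.95 log2. Of all genes tested in liver, 25.3% were called higher and 21.2% lower. Asns, asparagine synthetase, rose by 2.69 ± 0.32 log2 (adjusted p = 2.07e-07) and Trib3, a pseudokinase, by 2.75 ± 0.22 log2 (adjusted p = 4.58e-10), while Atf4 itself rose by 0.25 ± 0.08 log2 (adjusted p = 0.0126). Of 7 other plasma membrane and lysosomal carriers of amino acids or peptides, 5 were higher and 0 lower, with a median of 0.28 log2. Of 8 mitochondrial amino acid carriers, 2 were higher (Slc25a12 and Slc25a29) and 2 lower (Slc25a13 and Slc25a15), a share near the 46.6% of all liver genes called for diet.

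In SCN none of the 41 transporters was called for diet (edgeR). Across all 15759 genes, 0.0635% were called. At an unadjusted p under 0.05 there were 4 transporters, and DESeq2 and limma voom called none. The estimates were small, with 35 of the 41 genes within 0.2 log2 of no change and 21 of 41 positive. Slc3a2, the most changed by p, ranged from 67.7 to 92.8 CPM on control (median 82.2) and from 67.6 to 97.9 CPM on MCD (median 77.5), a change of -0.10 ± 0.04 log2 (adjusted p = 0.832). Slc7a1 changed by -0.05 ± 0.06 log2 and Slc6a11, with 784.2 to 923.1 CPM on control and 740.7 to 905.4 CPM on MCD, by -0.06 ± 0.03 log2.

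Whether the diet effect differed between the tissues was tested directly for the 33 genes in both tables. Of these, 18 were called, where 34.7% of the 14491 genes tested were, 14 with a higher change in liver and 4 with a lower one. The liver change exceeded that in SCN by 1.48 ± 0.20 log2 for Slc7a1 (adjusted p = 7.01e-08), by 0.79 ± 0.10 for Slc3a2 (1.98e-08), by 1.00 ± 0.18 for Slc6a8 (1.31e-05), by 0.88 ± 0.22 for Slc1a4 (0.00145) and by 0.72 ± 0.15 for Slc7a8 (0.000111). For Slc38a3 it lay below by 0.47 log2 (-0.47 ± 0.12, adjusted p = 0.0016). Slc1a5 and Slc7a7 were not called for this difference (0.73 ± 0.54 and 0.74 ± 0.44 log2), with SCN means of about 1.01 and 1.68 CPM on control. The calls of Slc38a5, Slc7a3 and Slc6a17 rest on few liver counts. Without control CT08 a 21 genes were called.

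The diet effect in liver was then compared between the sexes. Of the 40 genes 1 was called, Slc6a12, where 1.77% of all genes were. In females it ranged from 96.2 to 143.5 CPM on control (mean 119.3 ± 16.8, SD, n = 6) and from 57.8 to 89.0 CPM on MCD (71.0 ± 12.8), with no overlap. In males it ranged from 52.7 to 107.5 CPM on control (84.6 ± 16.9, n = 12) and from 63.8 to 111.7 CPM on MCD (84.96 ± 15.4). The change in females lay 0.76 log2 below that in males (-0.76 ± 0.16, edgeR adjusted p = 0.0122). The lowest male control was CT08 a, and without it the difference was -0.68 log2 (adjusted p = 0.0033). The call held with each single library left out and ended without all libraries numbered 1 or all numbered 2 (adjusted p = 0.0771 and 0.392).

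Daily rhythm was tested as a 24 h wave over the 6 times of each diet. In liver 9 transporters were called on control, where 17.8% of all genes were, and 11 on MCD, where 28.2% were. These are 22.5% and 27.5% of the 40 tested, so neither count stood far from that of all genes. Both diets called 7 of them, Slc38a2, Slc38a3, Slc38a4, Slc38a7, Slc6a9, Slc7a2 and Slc7a8. The MCD call of Slc7a8 (adjusted p = 0.0326) ended on leaving out any of 8 single libraries, with a highest adjusted p of 0.184. Without control CT08 a there were 9 and 12.

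Slc38a3 and Slc38a4 peaked in the subjective day in liver. Slc38a3 averaged 936.9, 1811, 2082, 1894, 1161 and 992.8 CPM at CT 0, 4, 8, 12, 16 and 20 on control, and 800.8, 1097, 1549, 987.0, 735.8 and 703.3 CPM on MCD. The fitted wave spanned 1.28 ± 0.20 log2 from trough to peak on control (SE, adjusted p = 0.000182), with the peak at 8.64 ± 0.587 h, and 1.06 ± 0.20 log2 on MCD (adjusted p = 0.000744), with the peak at 7.44 ± 0.704 h. Slc38a4 averaged 686.3, 802.2, 1049, 983.0, 684.4 and 739.7 CPM on control, while the MCD means were 434.3, 713.4, 733.9, 527.5, 412.2 and 412.4 CPM. Its wave spanned 0.61 ± 0.15 log2 on control (adjusted p = 0.0201) and 0.96 ± 0.16 log2 on MCD (adjusted p = 0.000181). The control call of Slc38a4 ended without control CT08 b, CT20 1 or CT20 2, with a highest adjusted p of 0.0761. Slc6a13 was called on MCD, with a wave of 0.35 ± 0.08 log2 and a peak at 14.3 ± 0.922 h (adjusted p = 0.00821), and not on control (0.12 ± 0.08 log2, adjusted p = 0.566), and the difference was not called. Its MCD call ended without all libraries numbered 1, all numbered 2 or all numbered 3.

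Slc7a2, the cationic carrier, was lowest at CT16 and highest at CT8 on control. It averaged 198.1, 384.9, 583.8, 524.8, 187.6 and 292.7 CPM on control, while the MCD means were 217.4, 475.7, 490.6, 317.2, 198.9 and 217.7 CPM. The waves spanned 1.46 ± 0.29 log2 (adjusted p = 0.00319) and 1.43 ± 0.29 log2 (adjusted p = 0.00215). The glycine carrier Slc6a9 was highest at CT12 on control, at 78.6 ± 22.4 CPM (SD, n = 3), and at CT8 on MCD, at 78.7 ± 3.22 CPM. Its waves spanned 1.202 ± 0.20 and 0.96 ± 0.19 log2 (adjusted p = 0.000337 and 0.00184), with peaks at 11.4 ± 0.615 and 8.00 ± 0.774 h. This shift was not called (adjusted p = 0.0842 for the difference in rhythm). Slc38a2 was highest at CT12 on both diets, at 160.8 ± 57.1 and 135.2 ± 20.6 CPM, with waves of 0.91 ± 0.19 and 0.70 ± 0.19 log2, and its MCD call ended without MCD CT08 1 or MCD CT20 2 (highest adjusted p = 0.0715). Slc38a10 was called on MCD, with a wave of 0.49 ± 0.10 log2 (adjusted p = 0.00195), and not on control (0.21 ± 0.10 log2, adjusted p = 0.305), and the difference was not called (adjusted p = 0.284).

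One transporter differed in its rhythm between the diets in liver, Slc38a7, where 4.87% of all genes did. On control it averaged 26.4 ± 3.39, 33.8 ± 2.49, 33.7 ± 2.40, 24.9 ± 0.328, 28.0 ± 2.87 and 23.3 ± 2.39 CPM at the 6 times (SD, n = 3 each), and on MCD 32.4 ± 1.26, 34.5 ± 5.98, 28.6 ± 2.21, 27.1 ± 2.21, 31.6 ± 1.78 and 36.4 ± 3.12 CPM. The diets did not overlap at CT0, CT12 and CT20, where MCD was higher, and at CT8, where control was higher. The wave spanned 0.47 ± 0.09 log2 with a peak at 6.28 ± 0.704 h on control, and 0.35 ± 0.09 log2 with a peak at 22.6 ± 0.925 h on MCD (adjusted p = 0.00447 for the difference). The call held with each single library left out and ended without all libraries numbered 1 or all numbered 2 (adjusted p = 0.217 and 0.125).

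**Figure D4:**
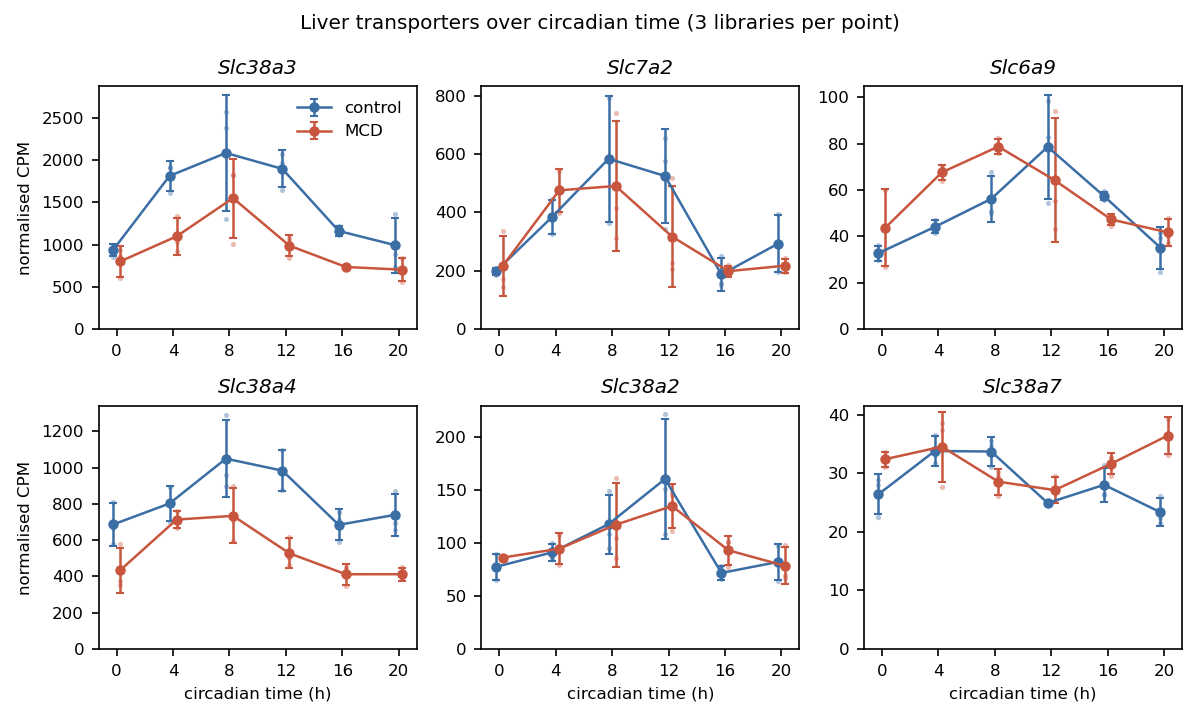
Normalised counts (CPM) in liver against circadian time for 6 transporters, control in blue and MCD in red, with means of 3 libraries, SD bars and faint points for single libraries. Slc38a3 and Slc38a4 are lower on MCD at each time, and Slc38a7 is highest at CT4 and CT8 on control and at CT20 on MCD.

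In SCN 12 transporters were called for rhythm on control, where 15.1% of all genes were, and 16 on MCD, where 16.1% were. These are 29.3% and 39.0% of the 41 tested, and both diets called 9. No difference in rhythm between the diets was called by edgeR (0 of 41, 4 at an unadjusted p under 0.05, and 0.0127% of all genes). The lists depended on single libraries: 6 transporters were called on control without control CT12 1, and 7 without control CT08 b, CT08 3 or CT20 2.

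The 3 SCN transporters of lowest p for rhythm on control had fitted peaks in the subjective day. Slc6a17 averaged 362.6, 613.9, 732.0, 591.1, 439.9 and 355.6 CPM at the 6 times on control, and the MCD means were 457.1, 653.0, 699.7, 572.9, 407.4 and 381.7 CPM. Its waves spanned 1.09 ± 0.09 and 0.94 ± 0.09 log2, with peaks at 8.44 ± 0.319 and 7.17 ± 0.371 h. Slc6a15, a carrier of branched-chain amino acids and proline, peaked at 8.10 ± 0.405 and 7.44 ± 0.357 h, with waves of 0.85 ± 0.09 and 0.97 ± 0.09 log2. It rose from 61.3 ± 3.11 CPM at CT20 to 104.5 ± 18.5 CPM at CT8 on control, and from 56.3 ± 8.92 to 110.0 ± 17.99 CPM on MCD. Slc36a4 was near 100 CPM at CT8 and CT12, with 99.7 and 100.9 CPM for control and 101.0 and 100.3 CPM for MCD libraries, and lowest at CT20 on control (60.6 ± 8.45 CPM) and at CT0 on MCD (72.4 ± 9.43 CPM). Its waves spanned 0.80 ± 0.11 and 0.55 ± 0.11 log2. The waves of these 3 genes held with each single library left out.

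Further SCN carriers had peaks from early in the subjective day to the night. Slc38a3, known in brain as the glutamine exporter of astrocytes, had waves of 0.62 ± 0.12 and 0.50 ± 0.12 log2 with peaks at 4.52 ± 0.756 and 3.51 ± 0.946 h, and its MCD call ended without MCD CT16 3 (adjusted p = 0.065). Slc6a19 was low, at 1.58 ± 0.207 CPM at CT16 and 5.47 ± 0.671 CPM at CT4 on control, with a wave of 1.51 ± 0.34 log2 (adjusted p = 0.00866). The glycine carrier Slc6a9 peaked at night, at 18.8 ± 0.964 h on control and 20.2 ± 0.808 h on MCD, with waves of 0.35 ± 0.09 and 0.41 ± 0.09 log2 (adjusted p = 0.0189 and 0.0039). The control call of Slc6a9 ended without control CT08 b or CT20 1, with a highest adjusted p of 0.064. In liver the same gene peaked at 11.4 and 8.00 h, and the 2 tissues were not tested against each other. Slc7a14, Slc6a8 and Slc38a1 had fitted peaks at 8.80, 8.57 and 8.45 h on control (adjusted p = 0.0328, 0.0323 and 0.0489), but these calls ended on leaving out any of 7, 9 and 27 single libraries. The peak of Slc7a5 was at 12.3 h (adjusted p = 0.018), and its call ended without control CT12 1 (adjusted p = 0.0743). The proline carrier Slc6a7 was called on MCD (0.60 ± 0.12 log2, adjusted p = 0.00199), highest at CT0 with 42.4 ± 4.82 CPM, and not on control (0.26 ± 0.12 log2, adjusted p = 0.279), and the difference was not called.

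**Figure D5:**
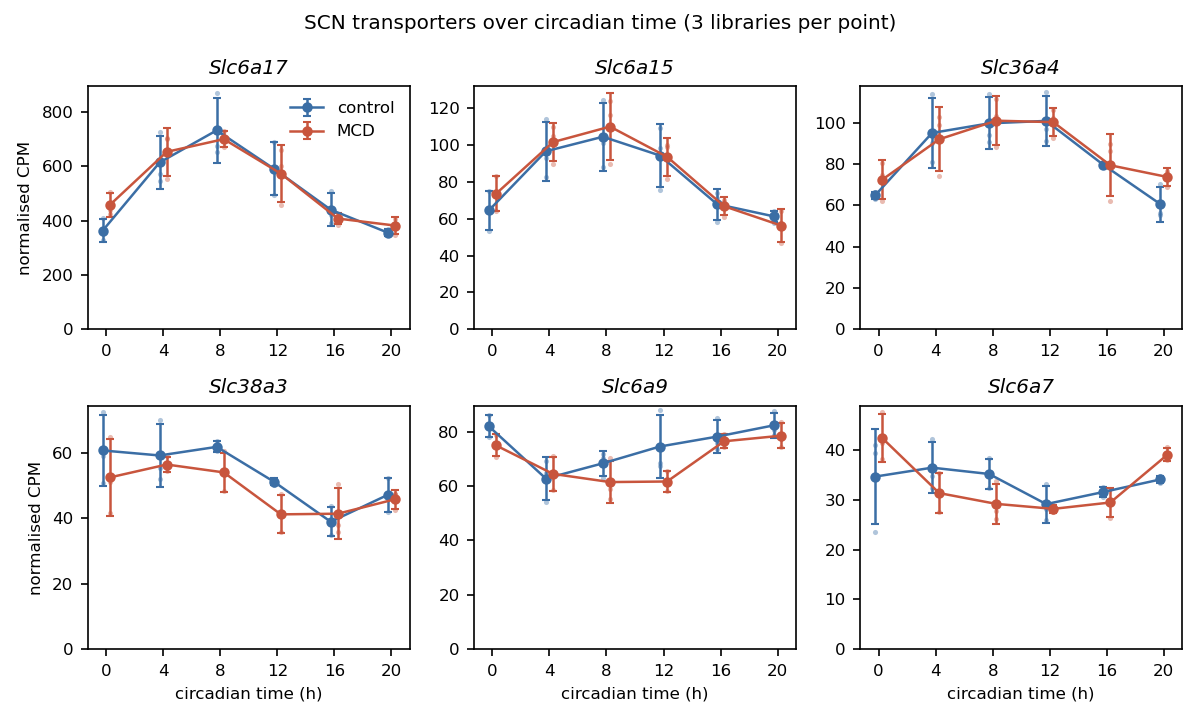
Normalised counts (CPM) in SCN against circadian time for 6 transporters, control in blue and MCD in red, with means of 3 libraries, SD bars and faint points for single libraries. Slc6a17, Slc6a15 and Slc36a4 are highest between CT4 and CT12 on both diets, and Slc6a9 is highest at CT20 on both.

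Exon usage by diet was tested in 34 liver libraries, from counts in bins, each a stretch of exon that the same transcripts share. Of 30 transporters tested, 5 were called (16.7%), where 3.99% of the 13242 genes tested were. Bins are numbered as in the authors' files, which give no positions, and the bins called held small shares of a gene's counts. In Slc38a4, bin 20 held 0.098 ± 0.0272% on control (SD, n = 16) and 0.262 ± 0.0642% on MCD (n = 18), with ranges of 0.029% to 0.148% and 0.163% to 0.382% that did not overlap. Bins 21 and 24 also took a higher share on MCD, and bin 22 fell from 2.25 ± 0.178% to 1.45 ± 0.176%, again without overlap (gene-level adjusted p = 4.15e-32). In Slc38a3, bins 46, 47 and 48 took a lower share on MCD, bin 47 at 0.106 ± 0.0656% on control and 0.0324 ± 0.0225% on MCD (gene-level adjusted p = 1.2e-17).

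Slc3a2, Slc6a13 and Slc6a6 each had 1 bin called. Bin 26 of Slc3a2 held 1.10 ± 0.418% on control and 0.433 ± 0.203% on MCD (gene-level adjusted p = 6.27e-06). Bin 5 of Slc6a13 held 0.242 ± 0.0689% and 0.49 ± 0.176% (7.01e-09), and bin 18 of Slc6a6 0.305 ± 0.0883% and 0.531 ± 0.181% (0.0111). Without the exon file of control CT08 1 the same number of transporters was called. The call of Slc6a6 ended without all libraries numbered 1, all numbered 2 or all numbered 3. That of Slc3a2 ended without all numbered 3. The 2 exon files of control CT00 that were cut short were not used.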

How the data were processed

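Gene counts for 36 liver and 36 SCN libraries and exon bin counts for liver were used as deposited by the authors. Per the labels' protocols, libraries were made from mRNA with a stranded poly(A) kit. The submitters' processing notes name Trimmomatic, HISAT2, StringTie, DESeq2 and the build GRCm39, without versions or roles. Whether the counting used strand is not given in the sources used here. The animal protocol speaks of male mice while the sample labels name females, and sex was taken from the sample labels.

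Genes were filtered at a minimum count of 10 with filterByExpr, scaled with TMM and tested with edgeR 4.0.16 (quasi-likelihood, robust) in R 4.3.3, in a model of 12 diet-by-time groups plus sex. p-values were adjusted by Benjamini and Hochberg over all genes tested, at a threshold of 0.05. Rhythm was a cosine and a sine of 24 h. Sex by diet was a further term, and the tissues were compared in 1 model of 72 libraries, taken as independent. Exon usage was tested with diffSpliceDGE and Simes' method in an additive model of time, diet and sex. The exon counts held 472109 bins, of which those with low counts, or left alone in their gene, were not tested. RPKM used exon lengths of GENCODE release 21 (mouse M21), matched by identifier for 51 of 51 genes, and promoter windows came from RefSeq (GRCm38.p6).

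Fully described were genes called in liver with a change of at least 1 log2 and a mean of at least 1 CPM, those called for sex by diet, rhythm difference or exon usage, the 5 of highest level per tissue and the 5 rhythms of lowest p per tissue and diet. Others stand by role with examples. The members and lists were chosen with earlier results of these data known. Alternatives were DESeq2 1.42.0, limma 3.58.1 (voom), other scalings and filters, the replicate block, the kind of library and leaving libraries out. The scripts were tested on simulated data. Results of 1 member are not reported here.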

Additional observations from a re-analysis of the deposited data

Results flagged for a closer look

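The diet effect differed between the sexes for Slc6a12 in liver, where the change in females minus that in males was -0.76 log2 (edgeR adjusted p = 0.0122). The rhythm of Slc38a7 in liver differed between the diets (edgeR adjusted p = 0.00447).

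The diet effect differed between liver and SCN for 18 transporters by edgeR's quasi-likelihood test, given here as the liver change minus the SCN change in log2. It was higher in liver for Slc3a2 (0.79), Slc7a1 (1.48), Slc6a8 (1.00), Slc7a8 (0.72), Slc38a10 (0.29), Slc7a3 (3.79), Slc7a5 (0.40), Slc43a2 (0.65), Slc1a4 (0.88), Slc38a5 (4.599), Slc7a6 (0.97), Slc38a1 (0.60), Slc7a4 (0.43) and Slc6a9 (0.31). It was lower in liver for Slc38a3 (-0.47), Slc6a17 (-2.70), Slc38a6 (-0.49) and Slc36a1 (-0.23). Across the other tests, scalings and filters 15 to 21 genes were called. The calls of Slc38a6 and Slc36a1 ended with library totals alone, and those of Slc6a17, Slc7a3 and Slc7a4 with limma voom. Over all liver libraries Slc7a3 had 23 counts on control and 100 on MCD, Slc6a17 had 44 and 13, and Slc38a5 had 38 and 221, so these fitted values are no measure of a fold.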

How the results depend on the processing

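Across the other tests, scalings and filters the liver diet effect was called for 23 to 27 transporters. The liver diet calls of Slc1a4, Slc38a1, Slc7a6os, Slc7a4, Slc6a6, Slc36a4, Slc6a13, Slc6a12 and Slc38a5 each ended without all libraries of at least 1 number. Leaving out libraries, 1 at a time or all of 1 number, gave 19 to 27 for the liver diet effect, 2 to 10 and 3 to 12 for liver rhythm on control and MCD, 0 to 2 for the liver rhythm difference and for sex by diet, and 4 to 12 and 5 to 18 for SCN rhythm on control and MCD. For the diet effect by tissue and exon usage only libraries of 1 number, and 1 single library each (control CT08 a and the exon file of control CT08 1), were left out, which gave 10 to 21 and 3 to 5. With library totals alone 7 liver rhythms were called on MCD and 2 genes for sex by diet, and the diet changes of Slc36a1, Slc7a6os and Slc6a12 reversed to 0.013, 0.11 and 0.0083 log2. DESeq2 called 2 genes for the liver rhythm difference and 2 for sex by diet. The cause was not tested. Libraries of 1 number did not deviate together (mean correlation -0.06 in liver and -0.03 in SCN), and with the replicate block 5 liver rhythms and 6 SCN rhythms were called on control and 0 liver rhythm differences (adjusted p = 0.0543 for Slc38a7, and 0.112 for the control rhythm of Slc7a2), the calls of Slc36a1 and Slc6a17 for the diet effect by tissue ended, and the other counts stayed within 1.5 times. With the longest transcript, levels per length moved to 469.6 RPKM for Slc38a3 and 97.4 RPKM for Slc6a13 in liver. Low counts limit Slc38a5, Slc7a3 and Slc6a17 in liver.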

Other observations

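In liver Slc6a19, a carrier of neutral amino acids best known from gut and kidney, had counts in 12 of 12 female libraries and in 7 of 24 male libraries. This difference was noticed after its values were seen and is given as a description.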
